A study of Mus musculus with 6 samples.

Results

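The 36 genes described here serve lipid storage in the sebaceous gland and in adipocytes, and were chosen as a named list whose probe sets were taken from the array annotation. Of the 36, 32 had a probe set carrying their symbol alone, out of 18193 genes measured, and where a gene had several probe sets the brightest on average was taken. The other 4, the adipocyte genes Cfd and Plin1 and the sebaceous genes Awat1 and Awat2, were not analysed here. The score genes were thus Adipoq, Lep and Retn for adipocytes and Far2, Mc5r and Krt79 for the sebaceous gland, 3 each. Their transcripts were measured on Affymetrix arrays in digested skin tumours of E-FABP-deficient (EKO) and wild-type (WT) mice, 3 biological replicates of each genotype with 1 array per replicate. EKO mice lack the epidermal fatty acid binding protein encoded by Fabp5. Mice of both genotypes had received DMBA, a carcinogen, and TPA, a phorbol ester that promotes tumour growth, over 5 months. The sources used here do not state strain, sex, age or the way in which Fabp5 was disrupted. The labels call the cells keratinocytes, whereas the design text describes digested tumours. Replicates are not described further, so a tumour below means the material of 1 array, whether it came from 1 tumour or several.

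Sebocytes fill with lipids such as triglycerides and wax esters and release them by bursting, so that sebum reaches the hair canal and the skin surface. Adipocytes under the skin instead keep triglyceride in large droplets, coat them with perilipins and CIDE proteins, and free fatty acids by lipolysis. Both cell types depend on PPAR-gamma and C/EBP-alpha and share the enzymes that build triglycerides, while wax ester synthesis is typical of sebocytes and hormones such as adiponectin of adipocytes. In bulk RNA of a digested tumour, fewer cells of a type and less RNA per cell cannot be told apart.

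The arrays had nearly equal medians, between 5.41 and 5.43 on the log2 scale, and the correlation between pairs of arrays over named probe sets lay between 0.986 and 0.994. Fabp5 averaged 8.16 in EKO and 14.85 in WT tumours (log2 difference -6.69, limma adjusted p = 1.04e-06), so every array matched its genotype label. Of the 13 listed keratinocyte markers, 12 were measured, with mean levels of 12.80 to 13.06 in EKO and 12.79 to 12.98 in WT tumours, a median difference of 0.03 and 0 called. Precision is limited by the number of arrays.

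No member passed the test between genotypes. Most members nevertheless had a lower mean in EKO tumours, 27 of 32 against 5 with a higher mean, and the median log2 difference was -0.26, where the median of all genes was 0.00 and 50% of all genes had a lower EKO mean. Adjusted over all genes, 0 of 32 members were called by limma, with adjusted p between 0.698 and 0.997, and 0.0055% of all genes were called, namely Fabp5. At an unadjusted p under 0.05, Krt79 alone was lower and 0 members were higher, against 3.7% of all genes lower and 3.44% higher, so that the members' count lay near the background. Slc2a4 was the 1 member whose groups did not overlap, with lower EKO values, as was the case for 6.19% of all genes, and 0 members had higher values without overlap (5.78% of all genes). By size, 7 members had a log2 difference of -0.5 or below (1.85% of all genes) and 0 had one of 0.5 or above (2.13%). These 7 were Adipoq, Far2, Krt79, Cidea, Thrsp, Acacb and Car3. Single tumours moved this count, which was 2 without WT replicate 1, 4 without EKO replicate 3 and 12 without WT replicate 2. The shares of all genes in those fits were 1.09%, 1.71% and 2.54%. With the mean over probe sets the count was 5, against 1.54% of all genes.

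**Figure D1:**
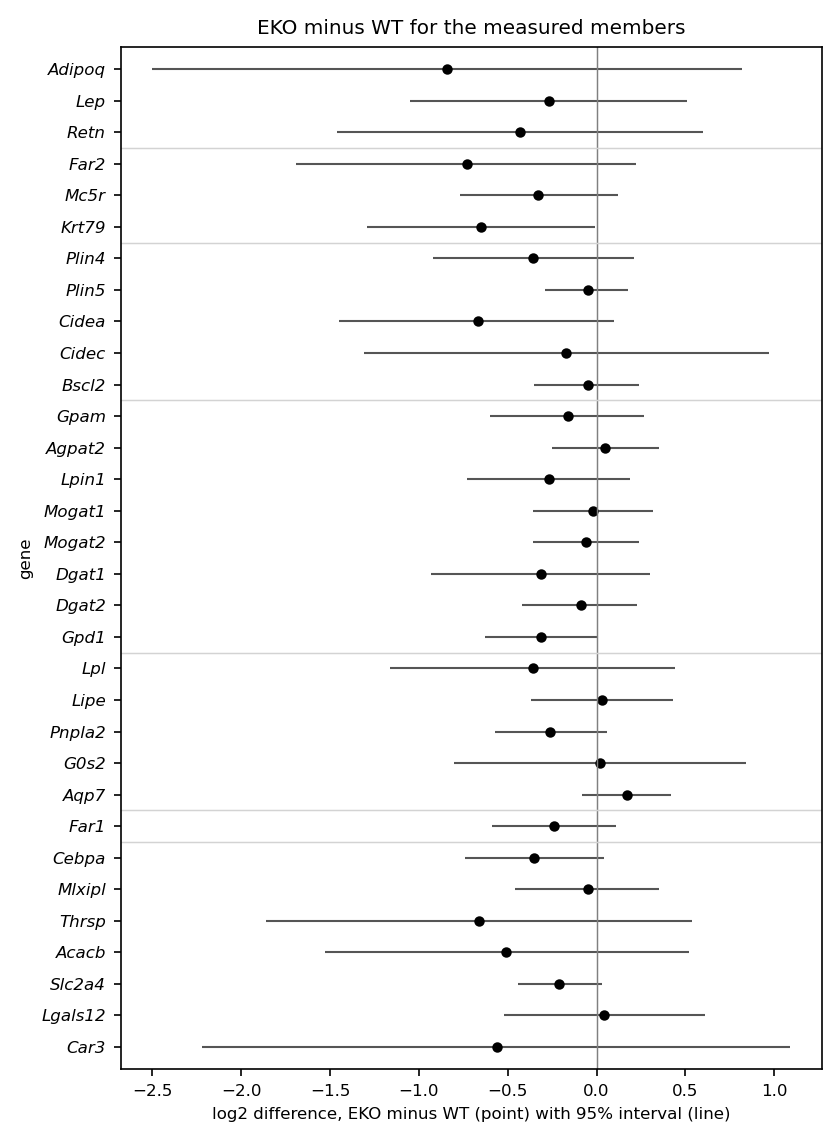
Log2 difference, EKO minus WT, for the 32 measured members (points) with its 95% interval from limma (lines), 3 arrays per group. The interval of Krt79, from -1.29 to -0.01, is the 1 that stays below 0, and the widest belong to Adipoq and Car3.

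The sebaceous and the adipocyte genes differed in the order of the arrays, but only in part. Averaged over the 3 genes of each set, EKO replicate 3 was low and WT replicate 1 was highest in both. Sebaceous genes were low in EKO replicates 1 and 3 and at the WT level in EKO replicate 2. Of the 3 adipocyte genes, Adipoq and Retn were high in EKO replicate 1 and in WT replicates 1 and 3, and low in EKO replicates 2 and 3 and in WT replicate 2. Lep shared the WT order, with EKO tumours that were alike. These orders were noticed in the values and are descriptions without a test.

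As 1 example of each order, chosen after the values were seen, the 250 bases before the annotated start of Far2 and of Adipoq are given 5′ to 3′ from RefSeq (GRCm38.p6). Far2 lies at chr6:148047166-148047415 on the plus strand, with GGGCGG, read on either strand, in capitals. Adipoq lies at chr16:23146286-23146535 on the plus strand, with CCAAT, read on either strand, in capitals.
Far2: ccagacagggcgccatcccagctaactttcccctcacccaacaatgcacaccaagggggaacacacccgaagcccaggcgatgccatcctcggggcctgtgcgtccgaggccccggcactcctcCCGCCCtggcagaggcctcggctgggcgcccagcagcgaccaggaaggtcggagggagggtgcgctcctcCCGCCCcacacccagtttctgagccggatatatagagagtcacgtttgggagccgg
Adipoq: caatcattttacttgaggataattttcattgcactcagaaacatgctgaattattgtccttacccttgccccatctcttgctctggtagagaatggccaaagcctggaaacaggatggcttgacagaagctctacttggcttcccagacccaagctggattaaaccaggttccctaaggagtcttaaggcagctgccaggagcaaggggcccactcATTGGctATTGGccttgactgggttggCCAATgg
The Far2 window held GGGCGG at 2 places, both on the opposite strand, the nearer one 56 to 51 bases before the start. The Adipoq window held CCAAT at 3 places, at 34 to 30, 27 to 23 and 7 to 3 bases before the start, the first and second of them on the opposite strand. Neither window held the motif of the other, and 5 motifs were searched on both strands in all, none overlapping another in these windows. The motif shown was picked for each gene, as the only 1 of the 5 in its window, so this contrast is no result. Among other members, Far1 held both motifs, and Krt79 and Retn held neither. Over windows of this length for all 32851 annotated starts, 32.7% held GGGCGG and 33.8% held CCAAT. RefSeq rows matched 22 of the 32 members with 30 starts, of which 11 held GGGCGG and 9 held CCAAT, shares of 36.7% and 30%. AGGTCA, the half-site bound by PPAR and RXR, stood in 6 of the 30, or 20%, against 14% of all starts, and in neither window above. TATAAA stood in 6.67% of member starts and 12.4% of all starts, and CACGTG in 6.67% and 6.02%. A match is a run of letters and no evidence of binding.

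Krt79 encodes a keratin of the upper hair follicle and the sebaceous duct. Its log2 values were 12.38, 13.56 and 12.78 in EKO replicates 1, 2 and 3, and 13.59, 13.57 and 13.52 in WT replicates 1, 2 and 3. The WT tumours were nearly alike, EKO replicate 2 lay among them, and EKO replicates 1 and 3 lay below all of them. The mean was 12.91 ± 0.602 in EKO and 13.56 ± 0.0385 in WT tumours (SD, n = 3 each), a log2 difference of -0.65 (SE 0.272, limma adjusted p = 0.698). This was the smallest adjusted p of any member. Without EKO replicate 2 the difference was -0.98 (limma adjusted p = 0.0890), and without EKO replicate 1 it was -0.38. Over all alternatives it stayed between -0.98 and -0.38.

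Far2 encodes a reductase that turns fatty acyl-CoA into the fatty alcohols of wax esters. It read 9.45, 11.15 and 10.33 in EKO replicates 1, 2 and 3, and 11.43, 10.81 and 10.89 in WT replicates 1, 2 and 3. Again EKO replicates 1 and 3 were the lowest arrays, while EKO replicate 2 was higher than 2 of the WT tumours. The log2 difference was -0.73 (SE 0.404, 95% interval -1.69 to 0.22, limma adjusted p = 0.756). A dimmer probe set of the gene gave 7.45, 8.93 and 7.98 in EKO against 9.10, 8.46 and 8.56 in WT tumours, the same order of EKO tumours with a difference of -0.58. The difference was -1.15 without EKO replicate 2 and -0.30 without EKO replicate 1.

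Mc5r encodes the melanocortin receptor that mice need for normal sebum output. It read 5.50, 6.19 and 5.82 in EKO replicates 1, 2 and 3, and 6.20, 5.96 and 6.34 in WT replicates 1, 2 and 3. EKO replicates 1 and 3 were lowest here too, over a narrow range. The log2 difference was -0.33 (SE 0.187, 95% interval -0.77 to 0.12, limma adjusted p = 0.761), -0.50 without EKO replicate 2 and -0.16 without EKO replicate 1. Over the 3 genes, the sebaceous score, which is the mean deviation from the 6-array mean on the log2 scale, was -0.86, 0.33 and -0.32 in EKO replicates 1, 2 and 3, and 0.44, 0.14 and 0.28 in WT replicates 1, 2 and 3. The score of EKO replicate 2 thus lay inside the WT range. The median difference of the 3 genes was -0.65, and it was -0.30 without EKO replicate 1 and -0.98 without EKO replicate 2.

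**Figure D2:**
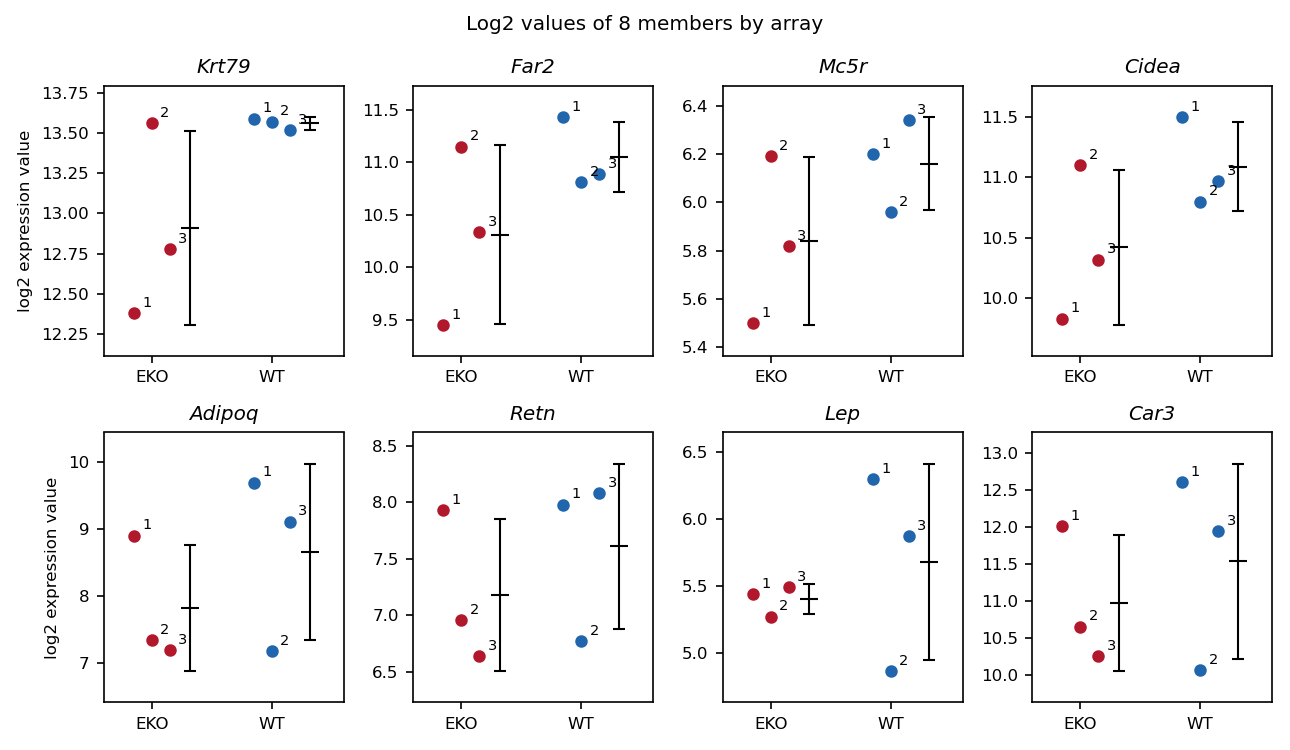
Log2 expression values of 8 members in EKO (red) and WT (blue) tumours, each point 1 array with its replicate number and the black bars the mean ± SD (n = 3 per group), on an axis of its own for each gene that does not start at 0. In the upper row EKO 1 and EKO 3 lie lowest, and in the lower row WT 2 lies low, being lowest for Adipoq, Lep and Car3.

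Among the adipocyte genes, Adipoq, the hormone adiponectin, had the largest difference of any member in size and also a wide spread within both groups. Its log2 values were 8.90, 7.35 and 7.20 in EKO replicates 1, 2 and 3, and 9.69, 7.18 and 9.11 in WT replicates 1, 2 and 3. All EKO values lay inside the WT range, since WT replicate 2 was the lowest array and WT replicate 1 the highest. Means were 7.82 ± 0.939 in EKO and 8.66 ± 1.31 in WT tumours (SD, n = 3 each), with a log2 difference of -0.84 (SE 0.704, 95% interval -2.50 to 0.82, limma adjusted p = 0.832). It was -1.58 without WT replicate 2, -1.39 without EKO replicate 1 and -0.33 without WT replicate 1, so its size rests on single tumours.

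Retn encodes resistin, another adipocyte hormone in mice. It read 7.93, 6.96 and 6.64 in EKO replicates 1, 2 and 3, and 7.98, 6.77 and 8.08 in WT replicates 1, 2 and 3. The high arrays were the same 3 as for Adipoq. Its log2 difference was -0.43 (SE 0.437, 95% interval -1.46 to 0.60, limma adjusted p = 0.856), with -0.85 without WT replicate 2 and -0.16 without EKO replicate 3.

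Lep encodes leptin, which signals fat stores to the brain. It read 5.44, 5.27 and 5.49 in EKO replicates 1, 2 and 3, and 6.30, 4.86 and 5.87 in WT replicates 1, 2 and 3. The EKO tumours were alike and lay inside the WT range, and 2 of the 6 values were below the median of their array. Its log2 difference was -0.27 (SE 0.331, 95% interval -1.05 to 0.51, limma adjusted p = 0.883). It was -0.68 without WT replicate 2 and 0.04 without WT replicate 1, where the sign turned. The adipocyte score of the 3 genes was 0.37, -0.53 and -0.61 in EKO replicates 1, 2 and 3, and 0.93, -0.79 and 0.63 in WT replicates 1, 2 and 3, so that WT replicate 2 had the lowest score of all 6 arrays. The median difference of the 3 genes was -0.43, with -0.85 without WT replicate 2 and -0.20 without WT replicate 3.

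Markers of skeletal muscle, a tissue that lies beneath the fat of mouse skin, moved with the adipocyte genes. All 20 listed markers were measured and all 20 had a lower EKO mean, with 0 called (limma adjusted p from 0.735 to 0.963) and a median difference of -0.97. Their score was 0.13, -0.58 and -0.98 in EKO replicates 1, 2 and 3, and 2.04, -0.99 and 0.38 in WT replicates 1, 2 and 3. Mean levels over the 20 markers ran from 5.92 to 7.03 in EKO and from 5.91 to 8.94 in WT tumours, and 0 markers stayed under the lower quartile on every array. Their 3 highest arrays were WT replicates 1 and 3 and EKO replicate 1 for 19 of 20 markers, against 4.7% of all genes. Fibroblast markers shared this order in 7 of 9 genes, with scores of 0.22, -0.34 and -0.30 in EKO and 0.24, -0.30 and 0.48 in WT replicates 1, 2 and 3. The part of muscle and stroma in the adipocyte values was not tested.

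Hair follicle markers had another order. Their score was 0.70, 0.59 and -0.15 in EKO replicates 1, 2 and 3, and -1.63, -0.64 and 1.13 in WT replicates 1, 2 and 3, and 13 of 13 measured markers had a higher EKO mean with 0 called. Macrophage markers had a lower EKO mean for 11 of 11 genes, 0 of them called and 6 lower at an unadjusted limma p under 0.05, with scores of -0.20, -0.53 and -0.09 in EKO and 0.41, -0.01 and 0.41 in WT tumours. Endothelial markers had 4 lower and 4 higher EKO means, with a median difference of 0.01 and 0 called. None of these lists had the order of the sebaceous genes, and the part of these cells in the members' values was not tested.

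**Figure D3:**
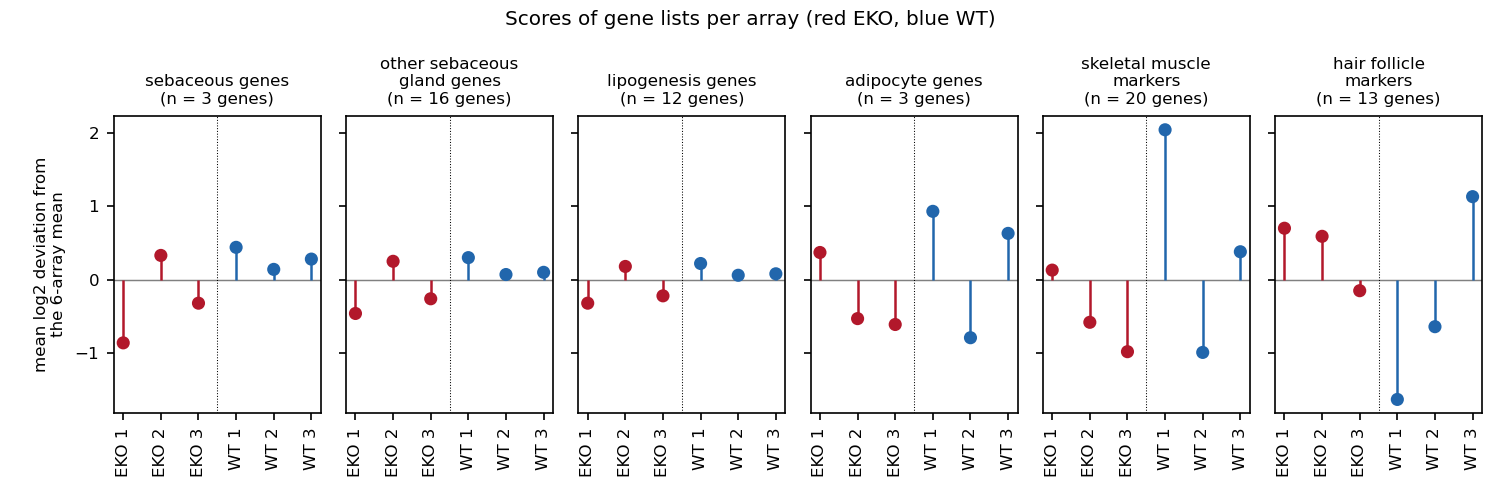
Scores of 6 gene lists in each array, as the mean log2 deviation of a list's genes from their 6-array means, with EKO arrays in red and WT arrays in blue. The sebaceous, other sebaceous and lipogenesis lists are lowest in EKO 1 and EKO 3, the adipocyte and muscle lists are highest in WT 1, and the hair follicle list is lowest in WT 1.

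Of the remaining members, some had one of these orders and others had neither. Counting members in which EKO replicates 1 and 3 were the 2 lowest arrays gave 11 of 32, where 8.65% of all genes had that order. Counting members in which WT replicates 1 and 3 and EKO replicate 1 were the 3 highest gave 9 of 32, where 4.7% of all genes did. The first 11 were Far2, Mc5r, Krt79, Cidea, Bscl2, Gpam, Dgat1, Gpd1, Far1, Cebpa and Acacb. The other 9 were Adipoq, Retn, Cidec, Mogat1, Lpl, Lipe, G0s2, Thrsp and Car3. Some met an order by a small margin. Bscl2 read 11.17 in EKO replicate 3 and 11.18 in WT replicate 2, and Lipe 6.59 in EKO replicate 1 and 6.56 in EKO replicate 3. Mogat1 was counted although it lay below the median in all 6 arrays. Neither order was seen in Lep, Plin4, Plin5, Agpat2, Lpin1, Mogat2, Dgat2, Pnpla2, Aqp7, Mlxipl, Slc2a4 and Lgals12. Both orders were defined after the values had been seen, and the counts include score genes in which they were noticed, so the counts are a description.

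**Figure D4:**
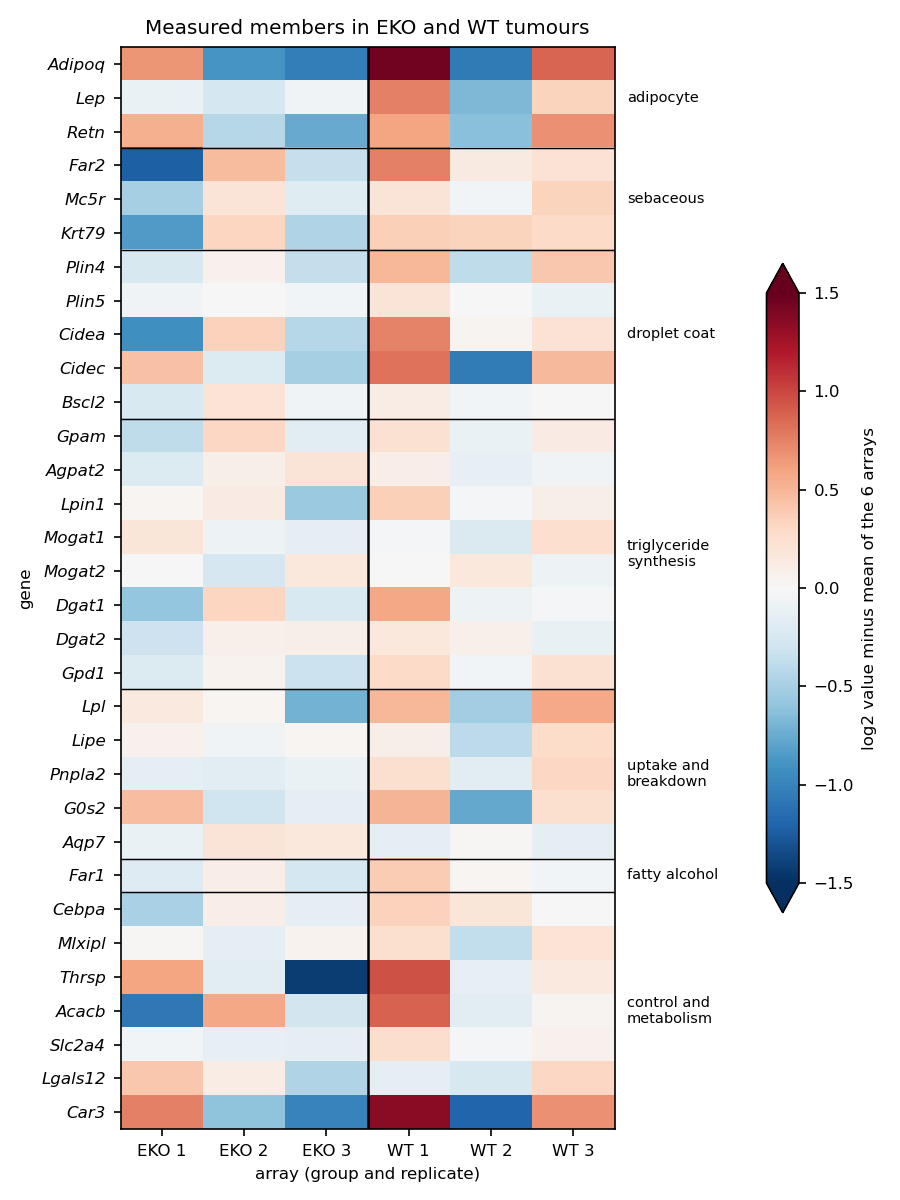
Heat map of the 32 measured members (rows, grouped by role) in the 6 arrays (columns, EKO left of WT), coloured by the log2 value minus the gene's mean over the arrays, with colours capped at 1.5 in size. Rows such as Far2, Krt79, Cidea and Acacb are blue in EKO 1 and EKO 3, and rows such as Adipoq, Retn, Cidec and Car3 are red in EKO 1, WT 1 and WT 3.

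Of the genes that coat or form lipid droplets, the related Cidea and Cidec both had lower EKO means, with different orders of the arrays. Cidea, which enlarges droplets in brown fat and in the sebaceous gland of mice, read 9.83, 11.10 and 10.32 in EKO replicates 1, 2 and 3, and 11.50, 10.80 and 10.97 in WT replicates 1, 2 and 3. Its order was that of Far2, and its log2 difference was -0.67 (SE 0.329, 95% interval -1.45 to 0.10, limma adjusted p = 0.717), with -1.01 without EKO replicate 2 and -0.38 without EKO replicate 1. Ucp1, the defining gene of brown adipocytes, read between 3.46 and 3.64 in all 6 arrays and stayed under the lower quartile of each. The 7 brown adipocyte markers, which include Cidea itself, had lower EKO means, with a median difference of -0.66 and 0 called. The largest difference was in Zic1, with 7.09, 6.46 and 5.59 in EKO and 7.50, 7.39 and 7.83 in WT tumours. It was -1.20 (SE 0.350, limma adjusted p = 0.621), without overlap, as 6.19% of all genes were lower. Zic1 did not have the 3 highest arrays of the muscle markers. For Ucp1 and Otop1, both under the lower quartile on every array, the differences were -0.03 and -0.02, and Cox8b and Cox7a1 had the 3 highest arrays of the muscle markers. Cidec, which fuses droplets in white adipocytes, read 6.48, 5.84 and 5.55 in EKO replicates 1, 2 and 3, and 6.86, 5.00 and 6.53 in WT replicates 1, 2 and 3. As for Adipoq, WT replicate 2 was the lowest array and all EKO values lay inside the WT range, and its difference was -0.17 (SE 0.484, limma adjusted p = 0.953), turning to 0.20 without WT replicate 1. Plin4, a perilipin of adipocyte droplets, had 7.98, 8.28 and 7.86 in EKO and 8.72, 7.84 and 8.62 in WT tumours, a difference of -0.36 that was -0.63 without WT replicate 2. Plin5, a perilipin of oxidative tissue, and Bscl2, which encodes seipin, a protein that helps droplets form, each had a difference of -0.05. A dimmer Plin5 probe set gave -0.30 (SE 0.098), with 3.85, 3.66 and 3.68 in EKO and 4.13, 3.95 and 4.01 in WT tumours. Those values lay below the array medians, and the size of the Plin5 difference thus depended on the probe set.

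The enzymes that build triglycerides varied little. Their 8 log2 differences ran from -0.31 to 0.05, 7 of 8 lower and none called. Dgat1, which makes the last step to triglyceride, read 8.94, 9.84 and 9.29 in EKO replicates 1, 2 and 3, and 10.09, 9.44 and 9.49 in WT replicates 1, 2 and 3, a difference of -0.31 (SE 0.263, limma adjusted p = 0.832). A dimmer Dgat1 probe set gave 0.24, so the gene's direction is uncertain. Dgat2, a second enzyme for that step, had a difference of -0.09, and its other probe set gave -0.30 (SE 0.169). Gpd1, which makes glycerol 3-phosphate, read 6.26, 6.52 and 6.15 in EKO and 6.75, 6.42 and 6.70 in WT replicates 1, 2 and 3, a difference of -0.31 (SE 0.136, 95% interval -0.63 to 0.01, limma adjusted p = 0.704). The other 3 Gpd1 probe sets gave -0.32, -0.02 and 0.01, the last of them at values from 2.55 to 2.95, under the lower quartile. Gpam, the first acyltransferase of the pathway, differed by -0.16, Lpin1, a phosphatidate phosphatase, by -0.27, and Agpat2, the next acyltransferase, by 0.05. Mogat1 and Mogat2, which acylate monoacylglycerol, lay below the median in all 6 arrays, with differences of -0.02 and -0.06. Far1, which makes fatty alcohols as Far2 does but in many tissues, read 10.02, 10.31 and 9.95 in EKO and 10.59, 10.24 and 10.17 in WT tumours. Its 5 probe sets had differences between -0.49 and -0.01.

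Genes of lipid uptake and breakdown had 2 lower and 3 higher EKO means. Lpl, the lipoprotein lipase that frees fatty acids for uptake, read 10.94, 10.82 and 10.08 in EKO replicates 1, 2 and 3, and 11.29, 10.27 and 11.36 in WT replicates 1, 2 and 3. WT replicates 1 and 3 were highest, and the difference was -0.36 (SE 0.340, limma adjusted p = 0.851), with -0.71 without WT replicate 2 and -0.09 without EKO replicate 3. Pnpla2, the lipase that starts lipolysis, read 6.85, 6.83 and 6.89 in EKO and 7.23, 6.82 and 7.29 in WT tumours. Its EKO tumours were nearly equal, and the difference was -0.26 (SE 0.133, limma adjusted p = 0.746). A dimmer Pnpla2 probe set gave 0.17 and the mean over probe sets -0.04, so this direction is uncertain too. G0s2, an inhibitor of the Pnpla2 lipase, differed by 0.02 and Lipe, the hormone-sensitive lipase, by 0.03. Another Lipe probe set gave -0.32, at values from 3.22 to 3.63, under the lower quartile on every array. Aqp7, a glycerol channel of adipocytes, had the highest difference of the members, 0.17, at levels under the lower quartile on every array, and its other probe set gave -0.09.

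Control and metabolic genes of adipocytes had 6 lower means of 7. Acacb, the acetyl-CoA carboxylase that curbs fatty acid oxidation, read 6.55, 8.20 and 7.34 in EKO replicates 1, 2 and 3, and 8.50, 7.45 and 7.66 in WT replicates 1, 2 and 3, a difference of -0.51 (SE 0.436, limma adjusted p = 0.834) that was -0.92 without EKO replicate 2 and -0.10 without EKO replicate 1. A dimmer probe set of Acacb gave 0.03. Cebpa, the transcription factor C/EBP-alpha, read 8.88, 9.47 and 9.23 in EKO and 9.71, 9.55 and 9.37 in WT tumours, a difference of -0.35 (SE 0.165, 95% interval -0.74 to 0.04, limma adjusted p = 0.714).

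Car3, a carbonic anhydrase abundant in fat and in slow muscle, shared its 3 highest arrays with Adipoq. It read 12.01, 10.65 and 10.25 in EKO replicates 1, 2 and 3, and 12.60, 10.06 and 11.94 in WT replicates 1, 2 and 3. The difference was -0.56 (SE 0.702, 95% interval -2.22 to 1.09, limma adjusted p = 0.886), with -1.30 without WT replicate 2 and -0.03 without WT replicate 1. Its 4 probe sets gave differences from -0.97 to -0.17. Thrsp, a promoter of fatty acid synthesis, read 6.91, 6.16 and 4.90 in EKO replicates 1, 2 and 3, and 7.28, 6.20 and 6.47 in WT replicates 1, 2 and 3. EKO replicate 3 was the lowest array, and the difference of -0.66 (SE 0.508, limma adjusted p = 0.819) was -0.12 without that tumour and -1.12 without EKO replicate 1. The other Thrsp probe sets gave -0.27 and -0.01, and the mean over probe sets -0.31.

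Slc2a4 encodes the insulin-regulated glucose transporter of fat and muscle. It read 6.78, 6.70 and 6.67 in EKO replicates 1, 2 and 3, and 7.08, 6.80 and 6.89 in WT replicates 1, 2 and 3. All EKO values were below all WT values, by a small margin, and the difference was -0.21 (SE 0.101, 95% interval -0.44 to 0.03, limma adjusted p = 0.717). A dimmer probe set overlapped between the groups, with a difference of -0.09. Lgals12, a galectin of adipocyte droplets, and Mlxipl, the glucose-responsive factor ChREBP, differed by 0.04 and -0.05, and Mlxipl lay below the median in all 6 arrays.

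Leaving out 1 tumour moved the number of members at an unadjusted p under 0.05. Without EKO replicate 2 it was 8 lower, namely Acacb, Cebpa, Cidea, Far2, Gpam, Gpd1, Krt79 and Mc5r, where 4.18% of all genes were. Without WT replicate 2 it was 9 lower, namely Adipoq, Car3, Cidec, Gpd1, Lep, Lpl, Plin4, Pnpla2 and Slc2a4, where 3.45% of all genes were. Gpd1 was common to both. No member passed after adjustment over all genes in either case, with the smallest adjusted p at 0.0890 for Krt79 and 0.737 for Lep by limma. Each tumour was left out in turn, and these counts are the highest of the 6 exclusions. Without EKO replicate 1, 1 member was lower (2.89% of all genes) and 1 was higher. Without EKO replicate 3, WT replicate 1 or WT replicate 3, 0 members were lower or higher. Of all genes, 3.34%, 2.13% and 4.88% were lower in those 3 fits.

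**Figure D5:**
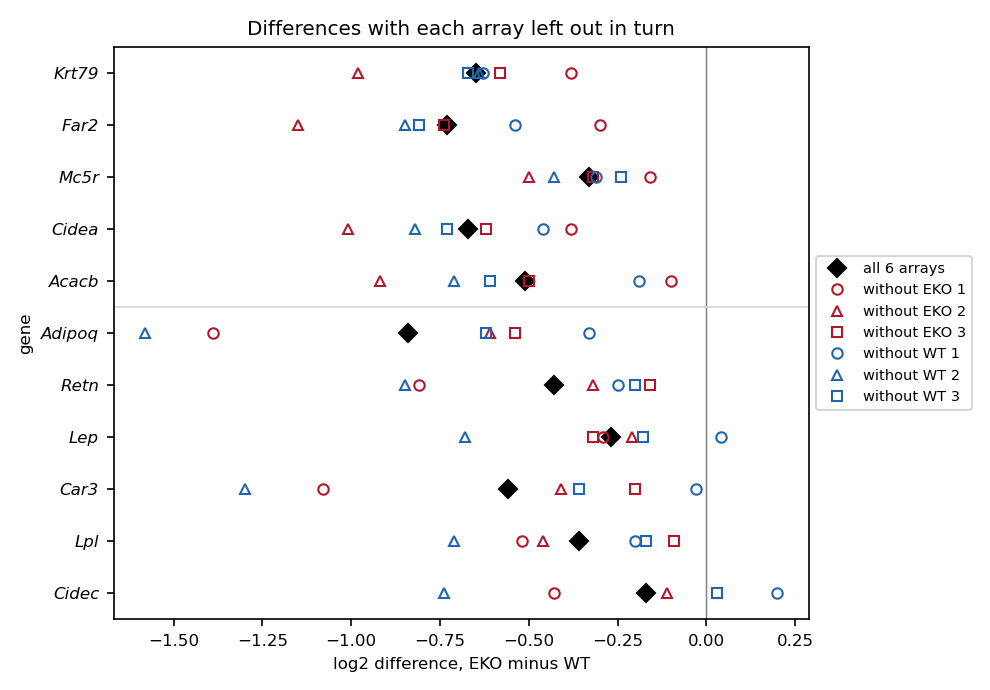
Log2 difference, EKO minus WT, of 11 members with all 6 arrays (black diamonds) and with each array left out in turn (red symbols for EKO arrays, blue for WT arrays). For the 5 upper genes the lowest values come from leaving out EKO 2, and for the 6 lower genes from leaving out WT 2.

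Other genes of the sebaceous gland had lower EKO means in 14 of 16 measured genes, with a median log2 difference of -0.28 and 0 called. For 11 of 16, EKO replicates 1 and 3 were the 2 lowest arrays. Their score was -0.46, 0.25 and -0.26 in EKO and 0.30, 0.07 and 0.10 in WT replicates 1, 2 and 3. Alox8, a lipoxygenase that phorbol ester induces in mouse skin, read 8.61, 9.07 and 8.36 in EKO and 9.29, 9.68 and 9.34 in WT tumours without overlap, a difference of -0.76 (SE 0.195, limma adjusted p = 0.621). Apoc1, an apolipoprotein, differed by -0.45, and Elovl6, an elongase of palmitate, by -0.81, both without overlap. Their margins were small, with 12.06 in EKO replicate 2 and 12.13 in WT replicate 3 for Apoc1. For Elovl6 they were 12.52 in EKO replicate 2 and 12.57 in WT replicate 2. Of the 16 genes, 3 were lower without overlap, as were 6.19% of all genes. Pparg, which encodes PPAR-gamma, read 6.41, 7.19 and 6.61 in EKO and 7.79, 7.05 and 7.18 in WT tumours, a difference of -0.60 (SE 0.256, limma adjusted p = 0.699).

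Lipogenesis genes, a list that shares Pparg, Elovl6, Scd1 and Fasn with the sebaceous list, had lower EKO means in 11 of 12, a median of -0.20 and 0 called, and 9 of 12 had EKO replicates 1 and 3 lowest. Scd1, the stearoyl-CoA desaturase of sebocytes, differed by -0.37 and Acly, which makes cytosolic acetyl-CoA, by -0.21. Other adipocyte genes were lower in 11 of 18, with a median of -0.18 and 0 called. They were mixed in order: 5 had EKO replicates 1 and 3 lowest, such as Cd36, a fatty acid translocase (difference -0.94, SE 0.325, limma adjusted p = 0.641), Ces1d, a carboxylesterase, at -0.86 and Pparg. A further 6 had WT replicates 1 and 3 and EKO replicate 1 highest. The other direction was seen in Fabp4, the adipocyte fatty acid binding protein, with 13.67, 12.68 and 14.34 in EKO and 12.63, 12.60 and 13.35 in WT tumours (difference 0.70, SE 0.412, limma adjusted p = 0.765), and in Sncg, at 0.49. Both were named after their values were seen. Nnat, which encodes neuronatin, differed by -0.38 (limma adjusted p = 0.642), at levels below the median in all 6 arrays. Its groups did not overlap, as was so for 6.19% of all genes with lower EKO values.

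Other droplet and lipolysis genes were lower in 10 of 15, with a median of -0.11 and 0 called. Ldah, a droplet-associated hydrolase, read 9.10, 9.21 and 8.89 in EKO and 9.75, 9.37 and 9.40 in WT tumours, a difference of -0.44 (SE 0.137, limma adjusted p = 0.625). Fitm2, which helps droplets bud, differed by -0.33, Hsd17b11, a droplet-bound dehydrogenase, by -0.32 and Faf2 by -0.16. Other triglyceride synthesis genes were lower in 5 of 12 and higher in 7, with a median of 0.10 and 0 called. Among them Agpat3 differed by -0.35 and Gpd1l by -0.23, while Gpat3, a glycerol 3-phosphate acyltransferase, differed by 0.37 and Mboat1 by 0.45. At an unadjusted limma p under 0.05, 3 other adipocyte genes, 3 other sebaceous genes, 1 lipogenesis gene and 1 other droplet gene were lower, and of the other triglyceride synthesis genes 1 was lower and 1 higher. Among the markers, 6 of 11 macrophage genes, 1 brown adipocyte and 1 fibroblast gene were lower, 1 endothelial gene was lower and 1 higher, and 0 muscle, hair follicle or keratinocyte genes passed. Of all genes, 3.7% were lower and 3.44% higher at that threshold.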

How the data were processed

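Total RNA of 3 EKO and 3 WT replicates was labelled with biotin and hybridised to Affymetrix arrays, per the labels' protocols. The design text describes the material as digested tumours, whereas the labels call it keratinocytes. The deposited table holds log2 values. The submitters' processing notes name RMA, a method that subtracts background, equalises arrays and summarises probe sets, and the software Partek 6.6. The table has no detection calls, and scan batches are not stated. Replicates are called biological in the sample titles and not described further. RNA was extracted with a kit that is named differently in the design text and in the protocols.

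Of 45101 probe sets, 64 controls were left out, and 34945 carried 1 gene symbol, 932 several and 9160 were unnamed here. Entrez identifiers matched a RefSeq table (GRCm38.p6) for 34741 probe sets, with 0 symbols changed. For each of 18193 genes the probe set with the highest mean was used. Of the members with several probe sets, 12 of 18 had probe sets that all gave 1 sign and 6 did not. The difference, EKO minus WT, was tested two-sided with limma 3.58.1 under R 4.3.3 (lmFit and eBayes, no covariate). Benjamini-Hochberg adjusted p-values over all genes were called under 0.05. The procedure was tested on simulated data. Differences and scores are on the log2 scale, and lists were described and not tested.

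The members, the 12 lists of other genes (157 genes, 147 measured) and the tests were chosen with earlier results of these data known. The rule for genes given in full took the score genes and other members with an unadjusted p under 0.05, a log2 difference whose size reached 0.5 or no overlap, and up to 4 genes of each other list by smallest p. Values of further members and of Ucp1 were added after they were seen. Alternatives were a replicate block, the upper 50% of means, repeated quantile normalization, centred medians, array weights, a variance trend with intensity fitted robustly, a mean over probe sets, each array left out and a threshold of 0.1.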

Additional observations from a re-analysis of the deposited data

How the results depend on the processing

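Under the 13 alternative fits and the threshold of 0.1, 0 members were called, of 32 tested in each but the fit on the upper 50% of means, which tested 20. The number of genes called among all was 1, except that leaving out 1 array gave from 1 to 42, with 42 without EKO replicate 2 and 2 without WT replicate 2. On values of 2 decimals, 20 of 32 members kept the sign of their difference under every alternative that tested them, among them Krt79, Far2, Mc5r (not tested on the upper 50% of means), Cidea, Acacb, Adipoq, Retn and Car3, and 12 did not, Lep and Cidec among them. The median difference of the adipocyte genes ran from -0.85 to -0.20, that of the sebaceous genes from -0.98 to -0.30 and that of all members from -0.38 to -0.11, each range set by leaving out single arrays. With array weights the adipocyte median was -0.22, and with only the upper 50% of means it was -0.64 over 2 genes. Same-numbered EKO and WT arrays did not deviate together (correlations of -0.07, -0.09 and -0.34 over genes), and other pairs ran from -0.19 to 0.26. The labels state no pairing, and these correlations cannot decide whether the mice were paired. The replicate block gave 1 call among all genes and 0 among members, with medians of -0.43, -0.65 and -0.26 for the adipocyte genes, the sebaceous genes and all members. With 3 arrays per group and no detection calls, differences in dim genes such as Aqp7, Mogat1 and Mogat2 could not be measured.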
